A study of Mus musculus with 4 samples.

Results

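The nuclear genes of oxidative phosphorylation encode most of the subunits of the respiratory chain and of the ATP synthase in the inner mitochondrial membrane. They were taken from the count table by symbol: genes whose names start with Nduf followed by a, b, c, s or v, the genes Sdha to Sdhd, and genes whose names start with Uqcr, Cox4 to Cox8 or Atp5. The rule found 92 of the 24391 genes in the table. Of these, 36 encode subunits of complex I, 4 of complex II, 8 of complex III, 19 of complex IV and 15 of the ATP synthase, and 10 are not counted as subunits here. These are 7 complex I assembly factors (Ndufaf genes), Cox7a2l, a supercomplex assembly factor, Atp5s, factor B of the ATP synthase, and its relative Atp5sl. Ndufa4 and its relative Ndufa4l2 are named for complex I and were placed with complex IV, where Ndufa4 is now known to belong. The 13 subunits encoded by mitochondrial DNA were not analysed here.

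RNA-seq was performed on primary mouse embryonic fibroblasts (MEFs) from E13.5 embryos, held in quiescence, with 2 replicates of WT and 2 of Phf2 KO. All 4 libraries carried floxed Phf2 alleles and 1 copy of ERCre (genotype Phf2 flox/flox, ERCre/+), a Cre recombinase expressed from the Rosa26 locus that is activated by 4-hydroxytamoxifen (4-OHT). The label tamoxifen is given for the Phf2 KO libraries only, whose descriptions read Tamox, while those of the WT libraries read noTamox. The protocol states 0.5 µM 4-OHT for 7 days. No library had 4-OHT without the floxed alleles, so the effects of the drug, of Cre and of the loss of Phf2 cannot be told apart. Nothing in the labels says whether the replicates came from separate embryos, though the counts of Xist and Ddx3y given below differed between replicates 1 and 2 in both groups. The p-values measure only the spread between these libraries.

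Complex I takes electrons from NADH and complex II from succinate, and both pass them through ubiquinone to complex III. Complex III reduces cytochrome c, complex IV passes the electrons on to oxygen, and the proton gradient that complexes I, III and IV build drives the ATP synthase. Its nuclear genes are known targets of the transcription factors NRF1, of ETS proteins such as GABP, and of YY1.

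Motifs of these factors were searched on both strands in the promoters of the genes, from 250 bases before to 50 bases after the start of the RefSeq gene on GRCm38.p6. A promoter was found for 76 of the 92 genes and for 27025 genes in all. The letters GCGCATGC, the core that NRF1 prefers, were found in 12 of the 76 (15.8%) against 3.05% of all promoters. The ETS letters CCGGAAG were found in 17 (22.4%) against 9.93%, and the YY1 letters AAGATGGCG in 8 (10.5%) against 1.64%. At least 1 of these motifs was present in 31 (40.8%) of the 76 and in 13.6% of all promoters. Examples from several complexes are given because they carry these motifs just before the start, with the motif in capitals, 5′ to 3′ on the strand of the gene. They are Atp5k at chr5:108434430-108434459 (minus), Atp5g2 at chr15:102671070-102671099 (minus), Ndufa11 at chr17:56717692-56717721 (plus) and Sdhb at chr4:140961207-140961234 (plus) for NRF1, Uqcr11 at chr10:80406871-80406897 (minus), Cox6b1 at chr7:30626126-30626152 (minus) and Atp5e at chr2:174464187-174464213 (minus) for ETS, and Atp5j at chr16:84835021-84835074 (minus) for YY1 and ETS.
Atp5k: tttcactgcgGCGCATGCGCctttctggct
Atp5g2: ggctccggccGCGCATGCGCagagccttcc
Ndufa11: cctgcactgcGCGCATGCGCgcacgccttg
Sdhb: agcccagtggGCATGCGCcctacgggcc
Uqcr11: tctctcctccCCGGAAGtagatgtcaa
Cox6b1: cctctcgcagCTTCCGGccagtcggaa
Atp5e: acggccacagCTTCCGGtagccgctcg
Atp5j: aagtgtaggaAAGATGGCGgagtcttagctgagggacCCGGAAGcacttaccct
In the first 3 sequences the NRF1 letters and their reverse complement overlap, so both strands match. A match of letters says nothing on whether a factor is bound there. Among the tested genes with a promoter, the median log2 fold change (Phf2 KO over WT) was 0.14 for the 12 with the NRF1 letters and 0.15 for the 61 without, 0.15 for the 17 with the ETS letters and 0.14 for the 56 without, and 0.14 for the 8 with the YY1 letters and 0.15 for the 65 without.

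The libraries held between 21094743 and 26094268 counts, so that the limit that a count of 0 allows (3 counts) was between 0.116 and 0.145 CPM (counts divided by the TMM-scaled library size), for counting error only. The count of Phf2 was 3244 and 3680 in WT against 1454 and 2158 in Phf2 KO replicates 1 and 2, a log2 fold change of -0.79 (SE 0.14). It missed the threshold in the quasi-likelihood test of edgeR, adjusted by Benjamini-Hochberg (adjusted p = 0.999, unadjusted p = 0.00332) and passed with DESeq2 (adjusted p = 0.00321). Xist was counted 10042 and 8336 times in WT and Phf2 KO replicates 1 and 3 and 12 times in replicates 2, while Ddx3y had 6 and 10 counts in the first and 1271 and 1295 in the second, which puts a female and a male culture in each group. The 24 macrophage markers in the table summed to 4944 and 5454 CPM in WT and Phf2 KO replicates 1 and to 1062 and 1637 CPM in replicates 2, and none of them was at 0 in all libraries. The 14 fibroblast markers, all detected, summed to 86819 and 90544 CPM in WT and to 78485 and 76366 CPM in Phf2 KO. Of these markers, 2 had an unadjusted p under 0.05 by edgeR, both lower, against 2.67% of all genes tested. Their median transcript was 4192.5 nt, against 2870 nt over all genes tested, and fold changes varied with length (below). The 12 adipocyte markers summed to 1422 and 940 CPM in WT and to 1837 and 1228 CPM in Phf2 KO. Of the 6 tested, 2 had a positive log2 fold change (against 51.2% of all genes). The 15 muscle markers summed to 74.0 and 56.7 CPM in WT and to 61.3 and 48.1 CPM in Phf2 KO. Neural markers summed to 96.0 and 94.4 against 112 and 105 CPM, and endothelial markers to 48.8 and 17.7 against 43.1 and 17.7 CPM. Epithelial markers summed to at most 0.998 CPM. In bulk RNA, fewer cells of a type and less RNA per cell cannot be told apart, and the part of these differences in the values below was not tested. The fit on genotype alone leaves differences between replicates 1 and 2, such as those in sex and macrophage markers, in its spread within groups. A gene that this fit did not call is therefore not shown to be unchanged.

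Of the 92 genes, 87 had enough counts to be tested, together with 13581 other genes. No gene of the group passed an adjusted p of 0.1 in either direction, where 0% of the 13668 genes tested were called higher and 0.00732% (1 gene) lower. At an unadjusted p under 0.05 there were 13 genes higher in Phf2 KO (14.9% of 87, against 1.54% of all genes) and 0 lower (against 2.67%). This count was 3 (against 0.697% of all genes in the same fit) without WT replicate 1, 15 (against 2.70%) without WT replicate 2, 2 (against 0.572%) without Phf2 KO replicate 1 and 5 (against 0.402%) when Phf2 KO replicate 2 was left out. With the replicate number added to the fit as a block, 23 of the 87 genes were called higher and 0 lower, where 5.77% and 5.2% of all genes were called. The labels do not say that libraries with the same number are pairs, and this fit left 1 residual degree of freedom. When the trend of each library with transcript length was also removed, 5 of the 87 genes (5.75%) were called higher, against 5.46% of all genes, so this share was near the background. In the same fit, 17 of the 87 (19.5%, against 11% of all genes) were higher at an unadjusted p under 0.05 by edgeR. At that threshold 1 was lower, against 8.19% of all genes, and 64 of the 87 had a positive log2 fold change, against 53.5%. DESeq2 called 0 genes of the group at an adjusted p of 0.1, where it called 0.0623% of 16040 genes higher and 0.337% lower. It gave 14 higher and 0 lower at an unadjusted p under 0.05, against 1.08% and 1.44% of 18924 genes.

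The direction was shared more widely than the calls. The log2 fold change was above 0 for 75 of the 87 genes, against 51.2% of all genes tested. Both Phf2 KO libraries were above both WT libraries for 48 genes (55.2%, against 15.5% of all genes), and both were below for 3 (3.45%, against 18%), which were Uqcrc2, Ndufa4l2 and Ndufaf1. Since the libraries with the same number share their sex, the genes were also compared within each number, where 54 were higher in Phf2 KO in both comparisons (against 32.6%) and 4 lower in both (against 30.2%). The median log2 fold change was 0.13 over the 87 genes and 0.01 over all genes. It was 0.19 within replicates 1 and 0.10 within replicates 2. All 92 genes together took 0.724% and 0.748% of the counts in WT against 0.807% and 0.810% in Phf2 KO. The genes share the same 4 libraries and are not independent of each other.

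**Figure D1:**
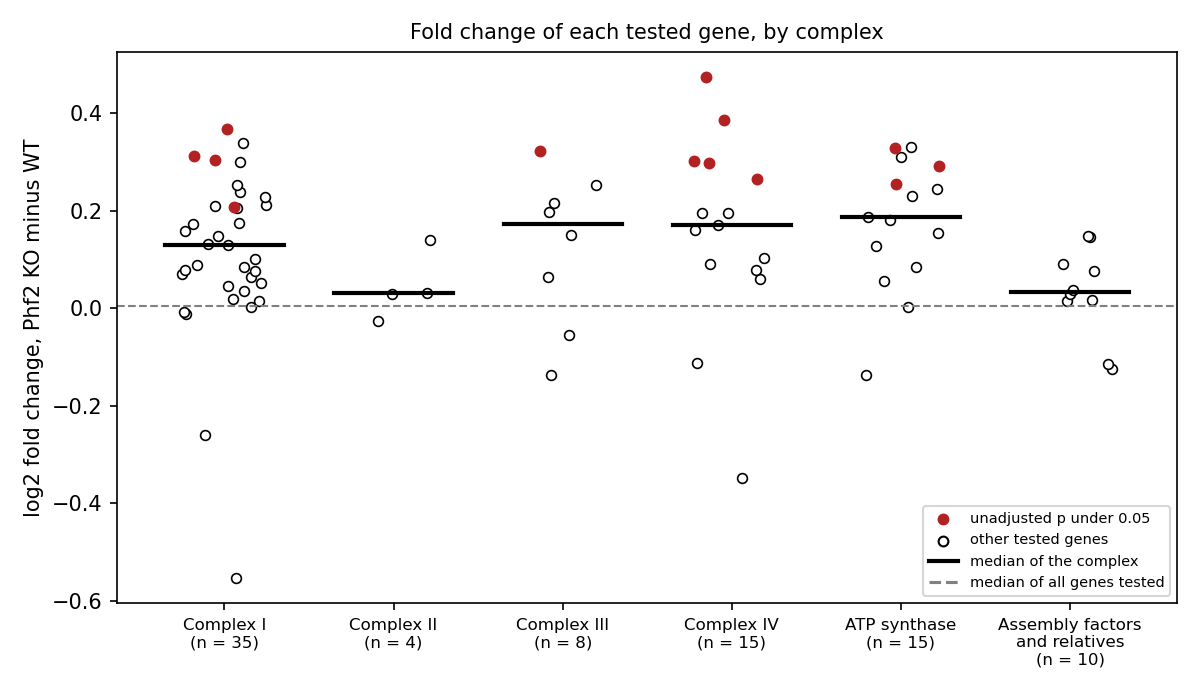
Log2 fold change (Phf2 KO minus WT, y axis) of each tested gene by complex, with 1 point per gene, filled where the unadjusted p was under 0.05, and a bar at the median. Most points sit above the dashed line at the median of all genes tested (0.01), and the medians are 0.13 for complex I, 0.17 for complexes III and IV and 0.19 for the ATP synthase against 0.03 for complex II.

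Complex I, the largest complex, had 35 of 36 subunits tested. Of these, 31 (88.6%, against 51.2% of all genes tested) had a positive log2 fold change, and the median was 0.13. The 7 nuclear core subunits, which hold the flavin and iron-sulphur clusters or the quinone site, had a median of 0.05, between -0.01 for Ndufs1 and 0.09 for Ndufv2. The 28 tested accessory subunits, which surround and stabilise the core, had a median of 0.17. Of these, 4 had an unadjusted p under 0.05 by edgeR and were higher, against 1.54% of all genes tested. The 2 highest complex I genes were Ndufa1 and Ndufc1.
Ndufa1, a small membrane subunit encoded on the X chromosome (mm9, chrX:34727583-34731158), was at 46.5 and 48.0 CPM in WT and 58.9 and 63.1 CPM in Phf2 KO. The groups did not overlap, and the log2 fold change was 0.37 (SE 0.09, unadjusted p = 0.0103, adjusted p = 0.999 by edgeR). Ndufc1, also in the membrane arm, was at 20.5 and 29.3 CPM in WT and 33.2 and 29.8 CPM in Phf2 KO, with a log2 fold change of 0.34 (SE 0.20) and an unadjusted p of 0.159. Its WT replicates were further apart than its group means, since the difference was 0.70 within replicates 1 and 0.02 within replicates 2. Ndufc2, its neighbour in the complex, was at 58.6 and 63.4 CPM in WT and 80.6 and 71.0 CPM in Phf2 KO, without overlap.
Ndufa3, one of the most abundant accessory subunits per length, was at 153 and 162 CPM in WT and 199 and 190 CPM in Phf2 KO, a log2 fold change of 0.31 (SE 0.09). Ndufa2, a subunit of the matrix arm, was at 73.5 and 76.2 CPM in WT and 86.6 and 86.3 CPM in Phf2 KO, a log2 fold change of 0.21 (SE 0.07). The replicates of these accessory subunits lay close together and both groups were apart. The 2 lowest complex I genes were Ndufab1, the mitochondrial acyl carrier protein, and Ndufb4, with log2 fold changes of -0.55 (SE 0.60) and -0.26 (SE 0.30). Both were counted at low levels, between 0.578 and 1.62 CPM for Ndufab1 and between 3.19 and 5.31 CPM for Ndufb4, with WT replicate 1 the highest library for each, and the sign of both turned without that library.

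**Figure D2:**
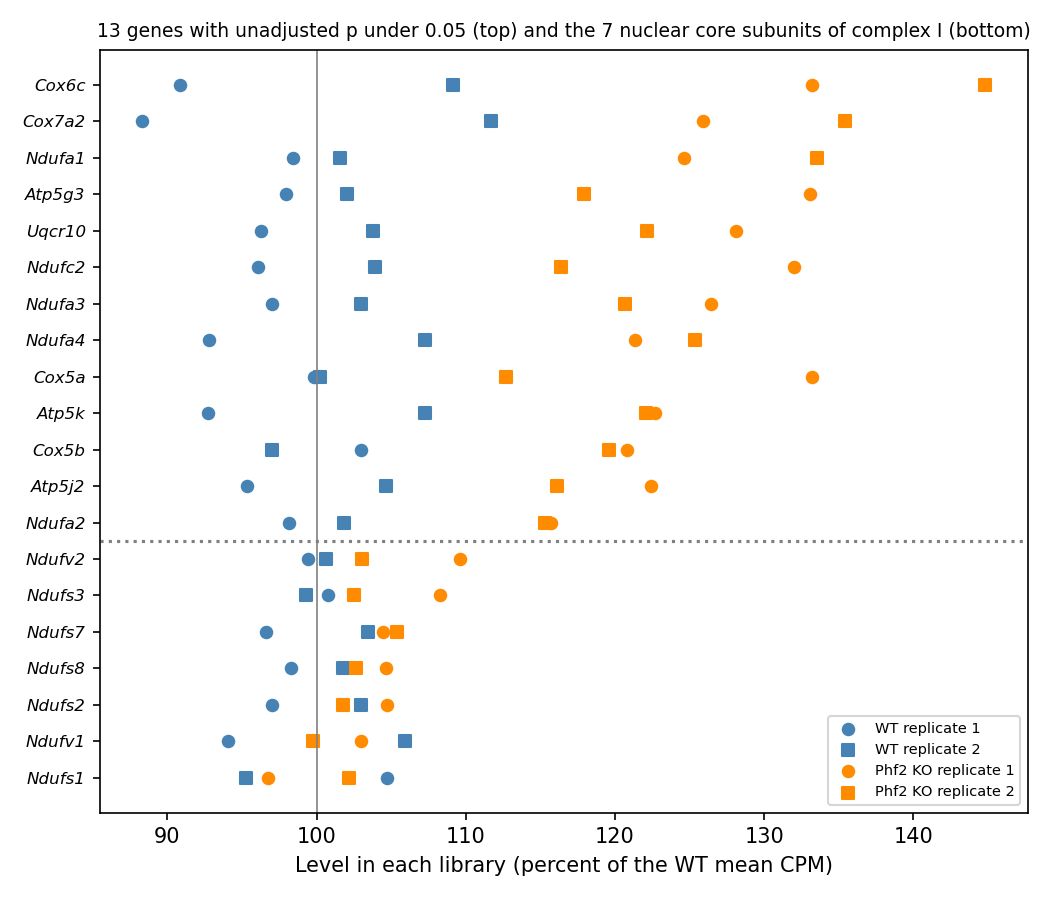
Level in each library (x axis, percent of the WT mean CPM) of the 13 genes with an unadjusted p under 0.05, above the dotted line, and of the 7 nuclear core subunits of complex I, below it. The upper genes were selected by this difference, so their separation is a description only. Both Phf2 KO libraries lie above both WT libraries in each of the upper genes, and between 90 and 110 percent of the WT mean in each of the lower genes.

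The 4 subunits of complex II, which also belongs to the citric acid cycle, had the smallest shift. Sdha, which binds the flavin, was at 209 and 194 CPM in WT and 212 and 184 CPM in Phf2 KO. Sdhb, the iron-sulphur subunit, was at 98.2 and 104 CPM in WT and 106 and 101 CPM in Phf2 KO. The membrane anchor Sdhc was at 133 and 133 CPM in WT and 144 and 128 CPM in Phf2 KO.
The groups overlapped for these 3 genes, whose log2 fold changes were -0.03, 0.03 and 0.03. The other anchor, Sdhd, was at 71.3 and 78.7 CPM in WT and 84.5 and 80.8 CPM in Phf2 KO, without overlap, with a log2 fold change of 0.14 (SE 0.09, unadjusted p = 0.184). All 4 were higher in Phf2 KO within replicates 1 (median 0.11), and 3 of them lower within replicates 2 (median -0.05). The median of complex II was 0.03 and ranged from -0.03 to 0.09 when 1 library was left out.

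In complex III, 6 of 8 subunits (75%, against 51.2% of all genes tested) had a positive log2 fold change, and the median was 0.17. Uqcr10, a small membrane subunit, was at 106 and 114 CPM in WT and 141 and 134 CPM in Phf2 KO, a log2 fold change of 0.32 (SE 0.08, unadjusted p = 0.0148). Uqcr11, another small subunit, was at 56.5 and 66.5 CPM in WT and 72.3 and 74.3 CPM in Phf2 KO, a log2 fold change of 0.25 (SE 0.11). Both genes had groups that did not overlap.
Uqcrc2, 1 of the 2 large core proteins, was the lowest of the complex, at 55.6 and 53.8 CPM in WT and 49.2 and 50.2 CPM in Phf2 KO, a log2 fold change of -0.14 (SE 0.08, unadjusted p = 0.164). Uqcrb, which binds ubiquinone, was at 4.65 and 3.74 CPM in WT and 3.91 and 4.16 CPM in Phf2 KO, a log2 fold change of -0.05 (SE 0.21), with overlapping groups. Outside the rule, Cyc1, the cytochrome c1 of the same complex, was at 107 and 117 CPM in WT and 116 and 119 CPM in Phf2 KO.

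Complex IV held 5 of the 13 genes with an unadjusted p under 0.05 (33.3% of its 15 tested genes, against 1.54% of all genes). Of the 15, 13 (86.7%, against 51.2% of all genes) had a positive log2 fold change, and the median was 0.17. Cox6c, a small membrane subunit (mm9, chr15:35855641-35868001), was the highest of all 87 genes. It was at 51.7 and 62.1 CPM in WT and 75.8 and 82.4 CPM in Phf2 KO, a log2 fold change of 0.48 (SE 0.12, unadjusted p = 0.0137, adjusted p = 0.999 by edgeR). Cox7a2 was at 94.9 and 120 CPM in WT and 135 and 146 CPM in Phf2 KO, a log2 fold change of 0.39 (SE 0.14).
In both genes all Phf2 KO libraries were above all WT libraries, and replicate 1 was the lower one in both groups. Cox5a and Cox5b, subunits on the matrix side, had log2 fold changes of 0.30 (SE 0.11) and 0.27 (SE 0.08). Ndufa4 was at 95.8 and 111 CPM in WT and 125 and 129 CPM in Phf2 KO, a log2 fold change of 0.30 (SE 0.10). The 2 most negative genes were Ndufa4l2, a hypoxia-linked relative of Ndufa4, at -0.35 (SE 0.33), and Cox6a2 at -0.11 (SE 0.17).

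Several complex IV subunits have a second form that is restricted to muscle, testis or other tissues, and in these MEFs the ubiquitous form made up most of the counts per kilobase. Cox4i1 held at least 99.9% of the Cox4i1 and Cox4i2 sum in each library, and Cox4i2 had between 2 and 5 counts. Cox6a2, known from heart and skeletal muscle, held 3.30% and 2.96% of its family in WT against 2.80% and 2.27% in Phf2 KO. The groups did not overlap in this share, but they did in the CPM of Cox6a2 (10.3 and 10.3 in WT, 10.5 and 8.53 in Phf2 KO). Cox6a1, the rest of the family, was at 262 and 293 CPM in WT and 317 and 319 CPM in Phf2 KO. Cox7a1, another muscle form, held 2.13% and 1.18% in WT against 1.24% and 1.34% in Phf2 KO.
Cox6b2, known from testis, held 2.55% in WT and 2.60% in Phf2 KO replicate 1 and 5.59% and 5.81% in replicates 2. Its share followed the replicate number and not the genotype. Ndufa4l2 held 0.530% and 0.585% of its family in WT and 0.334% and 0.377% in Phf2 KO, on 24 and 33 counts against 17 and 23. The testis form Cox8c had 1, 0, 1 and 0 counts and Cox7b2 had 0, 1, 0 and 1 counts in WT replicates 1 and 2 and Phf2 KO replicates 1 and 2, so neither was detectable above the limit at this depth. Cox8b had 6 and 4 counts in WT against 0 and 8 in Phf2 KO.

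The ATP synthase had the highest median, 0.19, and 14 of its 15 genes (93.3%, against 51.2% of all genes tested) had a positive log2 fold change. Atp5b, the catalytic beta subunit, was the most abundant of the 92 genes at 742 and 754 CPM in WT and 772 and 782 CPM in Phf2 KO, and Atp5a1, the alpha subunit, was at 466 and 446 CPM in WT and 469 and 445 CPM in Phf2 KO. Their log2 fold changes were 0.06 (SE 0.09) and 0.00 (SE 0.09). The groups of Atp5b did not overlap, while those of Atp5a1 did.
Atp5e, the small epsilon subunit of the central stalk, was at 116 and 145 CPM in WT and 169 and 159 CPM in Phf2 KO, a log2 fold change of 0.33 (SE 0.13, unadjusted p = 0.0575). The 5 genes of the F1 head and stalk had a median of 0.09, and the 10 genes of the c ring, the stator and the membrane part had a median of 0.24. Their median transcripts were 1410 and 761.5 nt. Atp5k and Atp5j2, small membrane subunits, had log2 fold changes of 0.29 (SE 0.10) and 0.25 (SE 0.09). Atp5h, a stator subunit, was the lowest at -0.14 (SE 0.14), with 36.9 and 31.9 CPM in WT and 28.4 and 34.2 CPM in Phf2 KO.
Subunit c, which forms the rotating ring, is made from 3 genes with the same mature protein. Atp5g3 held between 98.8% and 99.1% of their counts per kilobase. This share is no measure of their transcripts, since 100% of the 50-base coding windows of Atp5g2 and 96.4% of those of Atp5g1, but 0% of those of Atp5g3, are also found elsewhere in the genome. It was at 159 and 166 CPM in WT and 216 and 192 CPM in Phf2 KO, a log2 fold change of 0.33 (SE 0.10, unadjusted p = 0.0243). Atp5g1 had log2 fold change 0.13 (SE 0.17) and Atp5g2 0.18 (SE 0.67), the latter on 15 and 9 counts in WT against 17 and 7 in Phf2 KO. The 10 assembly factors and relatives had a median of 0.03, with 8 of 10 positive (80%, against 51.2% of all genes tested). None of them had an unadjusted p under 0.05.

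Most of the genes with an unadjusted p under 0.05 were short. Transcripts of the 92 genes ranged from 351 to 4715 nt, with a median of 960 nt over the tested ones against 2870 nt over all genes tested. The parts of the complexes set against each other above differed in length too. Median transcripts were 1540 nt for the complex I core and 868 nt for its accessory subunits. They were 2093.5 nt for complex II, 1410 nt for the F1 head and stalk and 761.5 nt for the other ATP synthase genes. The part of length in these contrasts was not tested separately. Medians of complexes I, III, IV and the ATP synthase from fits with the length trend removed are given at the end. Among the 35 tested genes of the group under 750 nt the median log2 fold change was 0.21, and 11 of the 13 genes with an unadjusted p under 0.05 were in this class. The median was 0.09 for the 31 genes between 750 and 1500 nt, 0.05 for the 16 between 1500 and 3000 nt and 0.06 for the 5 over 3000 nt. Other genes moved the same way with length, with medians of 0.11 (325 genes), 0.04, 0.01 and -0.02 in the same classes, and 5.54% of the short ones had an unadjusted p under 0.05 and were higher. The 124 other short genes at 20 CPM or more in WT, whose median level of 63.5 CPM was near the 64.3 CPM of the group's short genes, had a median of 0.11, and 9.68% of them had an unadjusted p under 0.05 and were higher, against 31.4% of the 35. Across genes, which are not independent and share the same 4 libraries, the Spearman correlation between length and log2 fold change was -0.54 over the 87 genes (-0.40 within replicates 1 and -0.58 within replicates 2) and -0.15 over 12975 genes with a length. When the trend of each library with transcript length was removed, an alternative added after the data were seen, the median of the group was 0.07 (0.01 over all genes), 64 of 87 genes were positive (against 53.1% of all genes) and 1 (1.15%) had an unadjusted p under 0.05 and was higher, against 1.79% of all genes. Cytosolic ribosomal protein genes, also short, had a median of 0.07 over 75 tested genes. Of these, 3 had an unadjusted p under 0.05 by edgeR and were higher, against 1.54% of all genes tested. Their counts are uncertain, since 61 of the 79 with a transcript had at least 50% of their 50-base coding windows found elsewhere in the genome.

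**Figure D3:**
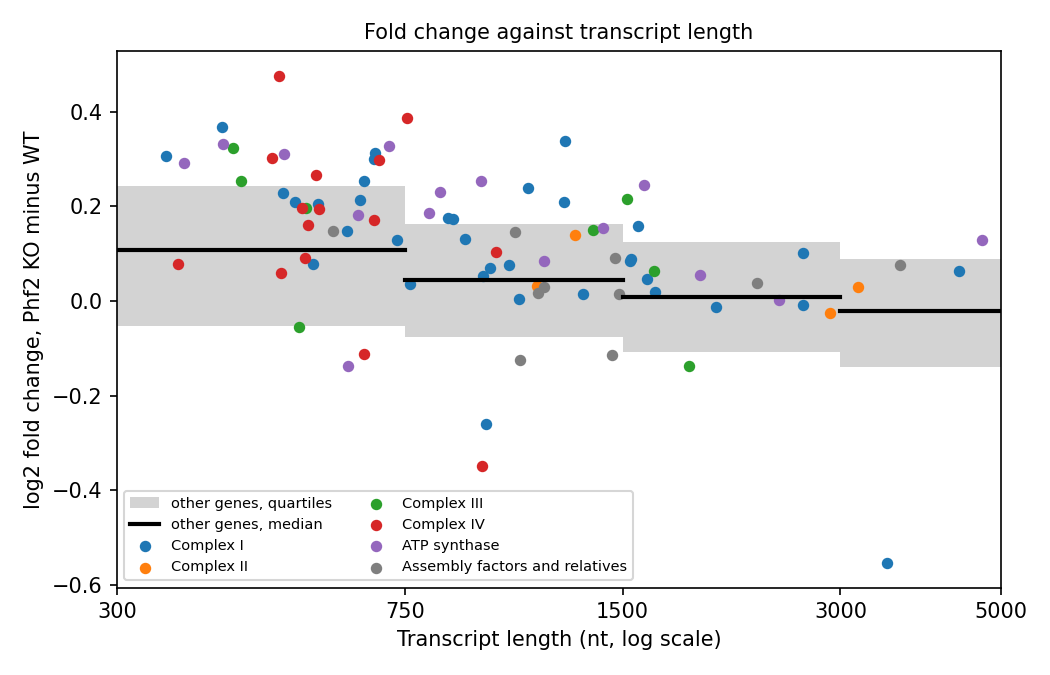
Log2 fold change (Phf2 KO minus WT, y axis) against transcript length (nt, log scale) for the 87 tested genes, coloured by complex, with the median and quartiles of the other genes in each length class in black and grey. Genes of the group under 750 nt have a median of 0.21 against 0.11 for the other genes of that class, and both medians are lower in the longer classes.

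Processed pseudogenes are known for many genes of this kind, so the transcripts were compared with the genome at the read length of 50 nt. Each 50-base window of a transcript was looked for elsewhere in mm9, where a read would not have 1 place only. Of the 92 genes, 54 had no coding window found elsewhere, 22 under 25%, 3 between 25% and 50%, and 13 at 50% or more. The last class had a median level of 7.84 CPM per kb in WT, against 58.2 for the first and 101 for the second. Its members are Atp5g1, Atp5g2, Atp5h, Atp5l, Cox5b, Cox6c, Cox7a2l, Cox7c, Ndufa12, Ndufab1, Ndufb4, Ndufs5 and Uqcrb, whose counts are uncertain and may be too low or hold reads of copies. Without this class, 11 of the 13 genes with an unadjusted p under 0.05 remain, since only Cox5b and Cox6c are in it. The windows below are shown because they are coding sequence of members that is present word for word at other places, each read from the transcript 5′ to 3′. That of Ndufs5 (chr4:123393273-123393322, minus) was found also at chr16:42955744-42955793 in the pseudogene BC002163, that of Atp5g2 (chr15:102495559-102495608, minus) at 5 places, that of Cox7c (chr13:86185393-86185442, minus) at 4, that of Ndufb4 (chr16:37649121-37649170, minus) at 4 and that of Atp5l (chr9:44721499-44721548, minus) at 10, own gene included (mm9).
Ndufs5: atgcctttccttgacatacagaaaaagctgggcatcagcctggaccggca
Atp5g2: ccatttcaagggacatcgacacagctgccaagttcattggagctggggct
Cox7c: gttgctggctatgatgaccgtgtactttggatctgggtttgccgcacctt
Ndufb4: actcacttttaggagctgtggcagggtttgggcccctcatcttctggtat
Atp5l: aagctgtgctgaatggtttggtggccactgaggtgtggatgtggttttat
Ndufs5, an accessory subunit of complex I, was listed at 0 counts in all 4 libraries, while BC002163 had 25 and 25 counts in WT against 29 and 29 in Phf2 KO. Cox7c, a small membrane subunit of complex IV, was at 4.98 and 6.78 CPM in WT and 6.61 and 6.86 CPM in Phf2 KO, with a log2 fold change of 0.20 (SE 0.22). Cycs, the cytochrome c carrier and not in the rule, had 17 and 14 counts in WT against 14 and 20 in Phf2 KO.

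**Figure D4:**
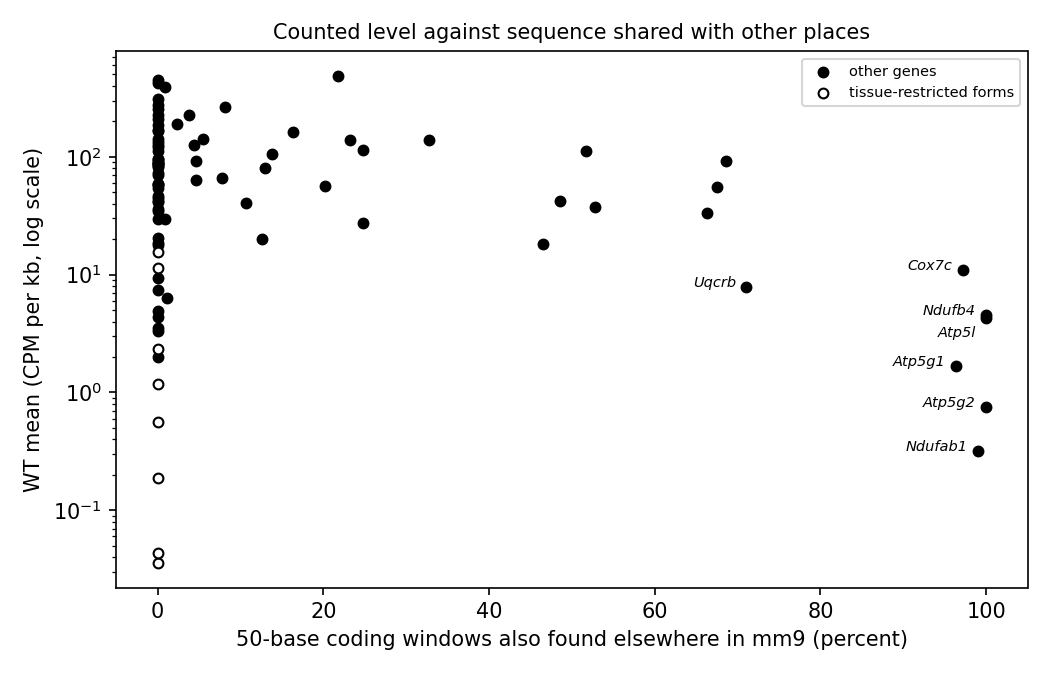
WT mean level (CPM per kb of transcript, log scale, y axis) of the 91 genes with a count in WT, against the share of their 50-base coding windows also found elsewhere in mm9 (percent, x axis), with tissue-restricted forms as open circles. The genes at 96% or more lie at or below 10.9 CPM per kb, while those at 0% span from the tissue-restricted forms to 448 CPM per kb.

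Lists of genes that act with these complexes were set beside the group. They differ from it in length, with median transcripts of 1813 nt for the assembly factors, 2403 nt for the citric acid cycle, 1526 nt for the carriers, 1185 nt for the mitochondrial ribosome and 3330 nt for the regulators. The 42 tested assembly factors outside the rule had a median log2 fold change of 0.06, with 30 positive (71.4%, against 51.2% of all genes tested). Of these, 1 was higher and 0 lower at an unadjusted p under 0.05 by edgeR, against 1.54% and 2.67% of all genes. The gene was Cox17, a copper chaperone of complex IV, at 44.9 and 55.7 CPM in WT and 74.4 and 68.7 CPM in Phf2 KO. The 19 genes of the citric acid cycle and pyruvate entry had a median of -0.02, with 7 positive (36.8%, against 51.2% of all genes tested). In this list, 2 genes had an unadjusted p under 0.05 by edgeR and were higher, against 1.54% of all genes tested. They were Mpc1 and Mpc2, which form the mitochondrial pyruvate carrier. Their log2 fold changes were 0.54 (SE 0.18, unadjusted p = 0.0349) and 0.39 (SE 0.11, unadjusted p = 0.0225), with transcripts of 961 and 1025 nt. The 12 tested mitochondrial carriers and pore genes had a median of 0.08. Usmg5, an ATP synthase associated protein with a transcript of 341 nt, was at 0.36 (SE 0.12). Slc25a12, an aspartate and glutamate carrier with a transcript of 6351 nt, was at -0.23 (SE 0.08). The count of Usmg5 is uncertain, since 94.5% of its coding windows are also found elsewhere in the genome. This share was 43.7% for Mpc1, 5.97% for Mpc2 and 0% for Cox17 and Slc25a12. The 77 mitochondrial ribosomal protein genes had a median of 0.05. At an unadjusted p under 0.05 by edgeR, 3 of them were higher and 0 lower, against 1.54% and 2.67% of all genes tested. For each gene named from these lists the adjusted p was 0.999 by edgeR.
The 23 tested regulators had a median of -0.06, and none had an unadjusted p under 0.05. Ppargc1a, a coactivator of mitochondrial genes, was at 1.95 and 2.27 CPM in WT and 0.627 and 2.33 CPM in Phf2 KO, and Ppargc1b at 2.66 and 2.27 CPM in WT and 2.70 and 2.58 CPM in Phf2 KO. The groups overlapped for both. Pprc1, their relative, had a log2 fold change of -0.09 (SE 0.08) and Nrf1 of 0.06 (SE 0.12). Of the GABP subunits, Gabpa was at 40.2 and 39.8 CPM in WT and 34.8 and 34.7 CPM in Phf2 KO, a log2 fold change of -0.20 (SE 0.09, unadjusted p = 0.0741), Gabpb1 had 0.15 (SE 0.12) and Gabpb2 -0.15 (SE 0.09).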

How the data were processed

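Reads were single-end and 50 nt long. The authors trimmed them with Trim Galore, removed ribosomal RNA with Bowtie2, used STAR with a reverse-stranded setting on mm9, and assigned reads to genes by featureCounts. The counts deposited are whole numbers per gene symbol, not normalized. Tool versions and the annotation release are not given in the sources used here. The deposited table of the authors' own DESeq2 comparison (fold changes and p-values) was not used.

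The counts were fitted in R 4.3.3 with edgeR 4.0.16 (filterByExpr, TMM, glmQLFit, glmQLFTest) on genotype alone, adjusted over 13668 genes at 0.1. DESeq2 1.42.0, other scalings and filters, a threshold of 0.05, the replicate block and leaving out each library were alternatives, and the fit was tested on simulated data. Fold changes are Phf2 KO over WT. Levels per kb use 1 transcript a gene from GENCODE vM1 (NCBIM37, the same build as mm9), which matched all 92 genes. Window searches allowed 5 bases on each side of a junction. Figures used Matplotlib 3.10.9. There were 0 columns without a sample.

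The genes named are Phf2, the 2 highest and 2 lowest genes of each complex, all of complex II, those with an unadjusted p under 0.05, the 10 smallest p with the replicate block, paralog pairs, the 3 most abundant genes, and members of the lists with an unadjusted p under 0.05 or of the PGC-1, NRF1 and GABP kind. Others were named after their values were seen. The group and the lists were chosen with earlier results of these data known.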

Additional observations from a re-analysis of the deposited data

How the results depend on the processing

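The number of genes of the group called at an adjusted p of 0.1 was 0 in both directions with DESeq2, RLE scaling, library size alone, the other filters, a threshold of 0.05, each library left out and the length trend removed, and 0 lower in every fit. The labels do not say that same-numbered libraries are pairs. With the replicate number as a block, 23 genes were higher (789 of 13668 genes, or 5.77%, were called higher and 711 lower), and 5 of 87 (5.75%, against 5.46% of all genes) with the block and the length trend removed. The common dispersion was 0.00363 with the block and 0.0451 without. The replicate 1 minus replicate 2 difference of each gene in WT, set against the same in Phf2 KO, had Pearson's r = 0.776 over all genes tested and 0.453 over the 87. The cause was not tested. Phf2 passed with DESeq2 (log2 fold change -0.78), the block (-0.80) and the block with the length trend removed (-0.76).

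With the length trend removed, without and with the block, the medians were 0.072 and 0.071 for complex I, 0.084 and 0.085 for complex III, 0.069 and 0.069 for complex IV, and 0.13 and 0.13 for the ATP synthase. The ATP synthase median ranged from 0.15 to 0.23 with 1 library left out. In the same 2 fits the sign turned for Sdhb (-0.0079 and -0.0087), Cox6b1 (-0.084 and -0.076), Cox7a1 (-0.11 and -0.088) and Cox8a (-0.041 and -0.038). Atp5a1, at 0.0027, was -0.0093 with library size alone, -0.0018 without a filter and -0.00024 with the CPM filter. Leaving out 1 library turned the sign in at least 1 case for Ndufab1 (-1.13 to 0.37), Ndufb4 (-0.55 to 0.080), Sdha (-0.13 to 0.073), Sdhc (-0.059 to 0.11), Sdhb (-0.0083 to 0.068), Uqcrb (-0.22 to 0.12), Cox6a2 (-0.27 to 0.031), Atp5a1 (-0.045 to 0.047), Cox6b1 (-0.046 to 0.17), Cox6b2 (-0.60 to 0.72), Cox7a1 (-0.18 to 0.37), Atp5g2 (-0.72 to 0.76), Ppargc1a (-1.74 to 0.14), Ppargc1b (-0.024 to 0.23) and Nrf1 (-0.025 to 0.13). With 2 replicates a group, genes of low counts had the widest ranges.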
